A study of Mus musculus with 5 samples.

Results

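The genes described here are 10 transcriptional feedback genes of receptor tyrosine kinase to ERK signaling, Dusp4, Dusp5, Dusp6, Spry1, Spry2, Spry4, Spred1, Spred2, Etv4 and Etv5, which were taken by symbol from a table of 24527 genes. Their RNA was measured by bulk RNA-seq of prostate tumors from TripleTg mice, 3 of them castrated and 2 intact. All 5 mice carried the alleles hHGFtg, H11 hMET/+, Ctnnb1 L(Ex3)/+ and PB Cre4, so no sample without the transgenes served as a control. In these mice human HGF is made in every tissue, while human MET and a stabilized form of β-catenin are switched on in prostate epithelium by Cre under the probasin promoter, which is itself androgen-responsive. Castration was performed at 4 months, and castrated and age-matched intact mice were analyzed at 8 months. The table has no row for Cre or for the human HGF and MET transgenes. The castrated libraries held 28015507, 18951782 and 20492061 counts and the intact libraries 21560355 and 22853501. Values are listed throughout in this order, castrated replicates 1, 2 and 3 first and intact replicates 1 and 2 after them. Nothing in the labels says whether samples of a group shared a litter or a day of collection, and p-values measure only the spread between these 5 samples.

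When a growth factor such as HGF binds its receptor tyrosine kinase, adaptors load RAS with GTP, and the kinases RAF and MEK then activate ERK. Active ERK phosphorylates transcription factors, and part of what these switch on acts back on the pathway. The DUSP phosphatases remove phosphate from ERK and related kinases, the Sprouty and SPRED proteins restrain signaling upstream of ERK, and ETV4 and ETV5 are ETS family transcription factors that pass the signal on to further genes. The RNA of these genes is therefore widely read as ERK pathway output, and members of the group restrain or transmit growth factor signals in prostate epithelium and many other tissues.

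RefSeq promoter windows of GRCm38.p6, the assembly also called mm10, which run from 250 bases before to 50 bases after an annotated start, were matched by symbol for 7 of the 10 genes, with 8 windows in all. Shown are the windows of Dusp6 and of Etv5 at both of its starts, as the genes with the highest levels per length among the 10, and of Spry2, the gene in which castrated and intact samples did not overlap. Capitals mark GGAAG or its reverse complement CTTCC, the core that ETS factors such as ETV5 recognize. The sequences are on the strand of the gene, at chr10:99262981-99263280 (plus strand) for Dusp6, chr16:22438319-22438618 and chr16:22439521-22439820 (minus strand) for Etv5, and chr14:105896770-105897069 (minus strand) for Spry2.
Dusp6: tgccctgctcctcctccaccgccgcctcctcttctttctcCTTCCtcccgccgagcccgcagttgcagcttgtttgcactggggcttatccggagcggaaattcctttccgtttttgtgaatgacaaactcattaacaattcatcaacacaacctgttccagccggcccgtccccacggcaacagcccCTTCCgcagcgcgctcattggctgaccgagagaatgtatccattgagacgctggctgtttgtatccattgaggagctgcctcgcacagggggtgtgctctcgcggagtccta
Etv5 downstream start: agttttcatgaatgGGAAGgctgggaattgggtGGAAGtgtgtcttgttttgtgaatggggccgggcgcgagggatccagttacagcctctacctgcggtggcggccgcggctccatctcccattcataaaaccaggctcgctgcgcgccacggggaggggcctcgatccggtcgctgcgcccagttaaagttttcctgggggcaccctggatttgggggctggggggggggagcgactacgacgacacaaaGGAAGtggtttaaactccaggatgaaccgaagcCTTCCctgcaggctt
Etv5 upstream start: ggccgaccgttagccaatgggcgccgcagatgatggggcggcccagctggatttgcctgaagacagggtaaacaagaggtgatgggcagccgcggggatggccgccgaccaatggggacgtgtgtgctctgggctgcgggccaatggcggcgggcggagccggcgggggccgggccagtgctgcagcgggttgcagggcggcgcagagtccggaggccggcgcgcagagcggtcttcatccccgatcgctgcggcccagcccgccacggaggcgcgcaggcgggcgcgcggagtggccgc
Spry2: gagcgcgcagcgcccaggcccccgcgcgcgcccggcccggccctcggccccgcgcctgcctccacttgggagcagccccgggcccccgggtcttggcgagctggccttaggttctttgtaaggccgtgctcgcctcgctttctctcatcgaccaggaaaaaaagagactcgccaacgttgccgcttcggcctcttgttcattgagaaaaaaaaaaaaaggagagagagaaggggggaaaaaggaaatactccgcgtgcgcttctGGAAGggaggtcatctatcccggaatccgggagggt

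The GGAAG core, searched on both strands, occurred 2 times in the Dusp6 window, 4 times at the downstream and 0 times at the upstream start of Etv5, and 1 time in the Spry2 window. It was present in 6 of the 8 windows, beside 71.4% of all 32851 promoter windows, a like share. A match is only a description of the letters. The AP-1 letters TGANTCA, held by 7.81% of all windows, and the cAMP response letters TGACGTCA, held by 1.79%, were in 0 of the 8 windows. CG dinucleotides numbered from 17 to 40 per window, above the median of 7 over all windows.

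The samples of a group were not alike, and this bears on every comparison that follows. Krt8 and Krt18, keratins of luminal epithelium, were abundant in all 5 samples, Krt8 at 874, 776 and 1130 CPM (counts scaled to library size with TMM factors) in castrated and 1154 and 659 CPM in intact samples. Tgm4, which encodes a secreted prostate transglutaminase, was at 0.418, 0.0536 and 0.0481 CPM in the castrated samples, 0.224 CPM in intact replicate 1 and 1343 CPM in intact replicate 2. Mmp7, a matrix metalloproteinase, was at 225, 519 and 750 CPM in castrated and 234 and 4495 CPM in intact samples. It was listed with the secretory genes, but the paper also counts it among β-catenin downstream targets, and all 5 mice carried stabilized β-catenin. Whether β-catenin had a part in the Mmp7 values was not tested. Intact replicate 1 therefore had Tgm4 and Mmp7 at the level of castrated samples, and intact replicate 2 stood apart. Pbsn, the mouse probasin gene, was at 0 in castrated replicate 2 and intact replicate 1 and reached 5.19 CPM in intact replicate 2, and Msmb, another secretory gene, was at 0 in all 5 samples. The labels were taken as given, and whether the label or the part of the prostate sampled had a part in this was not tested, although either would change what a castrated to intact difference means. Fold changes of the 10 feedback genes, and of other genes where stated, are given with and without each intact sample.

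All 10 feedback genes were detected, with at least 135 counts in every sample, and all 10 passed the filter of a CPM above 1 in at least 2 samples. Together they took 0.155%, 0.0787% and 0.0613% of the counts of the castrated samples and 0.196% and 0.0374% of those of the intact samples. Castrated replicate 1 and intact replicate 1 were thus high, and all 3 castrated samples lay between the intact samples. In bulk tissue, fewer cells that express a gene and less RNA per cell cannot be told apart.

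**Figure D1:**
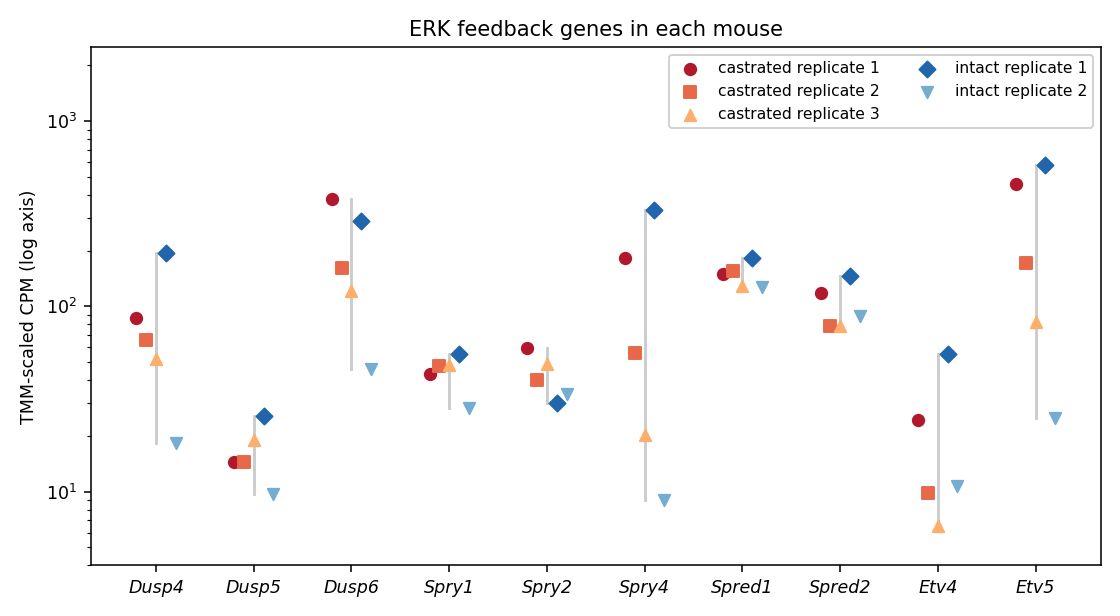
TMM-scaled CPM (log axis) of each feedback gene, with 1 point per mouse and a line from the lowest to the highest of the 5. Intact replicate 1 was the highest of the 5 mice for 8 genes and intact replicate 2 the lowest for 7, while Spry2 is the gene in which the 3 castrated mice lie above both intact mice.

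The first comparison asked whether ERK output differed between tumors that grew after castration and those of intact mice. No feedback gene passed the test of a difference between the groups. In the fit over 14612 genes, 0 of the 10 had an adjusted p under 0.05 with an absolute log2 fold change above 1 (edgeR quasi-likelihood, Benjamini-Hochberg), where 0% of all genes tested did so, and their adjusted p ran from 0.349 to 0.923. By DESeq2 and by edgeR's likelihood ratio test, which called 6.77% and 2.53% of all genes tested, 0 of the 10 passed the same threshold too. At an unadjusted p under 0.05, 1 of the 10 was reached, Spry2, beside 14.2% of all genes tested. The fitted log2 fold change, castrated against intact, was below 0 for 7 of the 10, beside 52.1% of all genes, and had a median of -0.249, against -0.0273 over all genes tested. The standard error of the log2 fold change was large, with a median of 0.658 for the 10 genes against 0.375 for all genes tested.

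Among the phosphatases, Dusp4 (chromosome 8, 34807610 to 34819894, mm10), which encodes a nuclear MAP kinase phosphatase, was at 86.6, 65.5 and 51.7 CPM in castrated and 194 and 18.3 CPM in intact samples. The castrated values lay close together and inside the range of the intact pair, which differed 10.6-fold. The log2 fold change of Dusp4 was -0.64 (standard error 0.90, adjusted p = 0.773 by edgeR quasi-likelihood, Benjamini-Hochberg). Dusp6 (chromosome 10, 99263231 to 99267489), the cytoplasmic phosphatase specific to ERK, was at 378, 161 and 121 CPM in castrated and 288 and 46.1 CPM in intact samples. Its highest value was that of castrated replicate 1 and its lowest that of intact replicate 2, so that the groups overlapped, with means of 220 ± 138 (SD, n = 3) and 167 ± 171 (SD, n = 2) CPM and a log2 fold change of 0.40 (standard error 0.88). Dusp5 (chromosome 19, 53529145 to 53541809), a nuclear phosphatase that also anchors ERK, varied less, from 14.4 to 19.0 CPM in castrated samples, with 25.7 and 9.73 CPM in intact replicates 1 and 2. In RefSeq the lncRNA Gm34921 overlaps the span of Dusp6 and has no row in the count table.

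Spry2 (chromosome 14, 105891947 to 105896819), a Sprouty protein that restrains RAS to ERK signaling, was the only feedback gene whose groups did not overlap. It was at 59.4, 39.9 and 48.8 CPM in castrated and 30.1 and 33.5 CPM in intact samples, with means of 49.4 ± 9.73 (SD, n = 3) and 31.8 ± 2.42 (SD, n = 2) CPM. Every castrated value was above both intact values, as in 17.0% of all genes tested, while 0 of the 10 had every castrated value below both intact values, beside 16.1% of all genes. The log2 fold change of Spry2 was 0.64 (standard error 0.25, adjusted p = 0.349 by edgeR quasi-likelihood, Benjamini-Hochberg). It stayed between 0.49 and 0.78 when any 1 sample was left out, and its unadjusted p in edgeR's quasi-likelihood test then rose above 0.05 without castrated replicate 1 (0.114), castrated replicate 3 (0.104), intact replicate 1 (0.137) or intact replicate 2 (0.0960).

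Markers of other cell types were also higher in castrated than in intact samples. Castrated samples were above both intact samples for 8 of 9 smooth muscle genes, summed at 429, 772 and 722 CPM in castrated and 253 and 165 CPM in intact samples, with Acta2 the most abundant, where 17.0% of all genes tested did so. The same held for 9 of 10 macrophage genes, led by Cd68, at 1104, 2726 and 1381 against 587 and 663 CPM. It also held for 5 of 8 fibroblast genes, led by Dcn, at 4897, 5844 and 7905 against 4270 and 2664 CPM. Of 10 adipocyte genes, led by Fabp4, 7 did not overlap, with sums over the list of 54.2, 715 and 665 against 36.1 and 90.8 CPM. Cfd, Lep and Pck1 were at 0 in both intact samples, and Lep was also at 0 in castrated replicate 1. In castrated replicate 1, the sample with the most Spry2, the smooth muscle, macrophage, fibroblast and adipocyte sums were the lowest of the 3 castrated samples. Endothelial genes ran the other way there, with sums of 564, 390 and 438 CPM in castrated samples, the same order as Spry2. The intact samples did not share this order, with endothelial sums of 530 and 252 CPM where Spry2 was at 30.1 and 33.5 CPM. Of these 10 endothelial genes, 4 were above both intact samples in every castrated sample, beside 17.0% of all genes tested. All 8 proliferation genes, led by Mki67, were below both intact samples in every castrated sample, beside 16.1% of all genes, with sums of 61.1, 85.3 and 112 against 269 and 355 CPM. The part of cell types and of proliferation in the Spry2 values was not tested.

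The other Sprouty genes did not separate the groups. Spry4, on chromosome 18, had the widest range of the 10, at 181, 56.0 and 20.2 CPM in castrated and 331 and 8.99 CPM in intact samples. Its highest value was 36.8-fold its lowest, a range exceeded by 4.07% of all genes tested, and the intact samples held both extremes. The fold change of Spry4 was -0.98 on the log2 scale, with a standard error of 1.48. Spry1 (chromosome 3, 37639947 to 37644599) was at 43.2, 47.5 and 48.1 CPM in castrated and 55.4 and 28.1 CPM in intact samples, with the castrated values almost level between the intact pair and a log2 fold change of 0.15 (standard error 0.33).

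Spred1 and Spred2 encode membrane-bound relatives of the Sprouty proteins, and SPRED1 brings the RAS inactivator neurofibromin to the membrane. Spred1 (chromosome 2, 117121071 to 117182277) was the steadiest of the 10, at 150, 155 and 129 CPM in castrated and 183 and 127 CPM in intact samples. Its range of 1.44-fold from lowest to highest was exceeded by 83.9% of all genes tested. Spred2 (chromosome 11, 19924442 to 20022597) was at 118, 78.0 and 78.1 CPM in castrated and 145 and 88.4 CPM in intact samples, with castrated replicate 1 again nearest to intact replicate 1. Their log2 fold changes were -0.09 (standard error 0.24) for Spred1 and -0.35 (standard error 0.32) for Spred2.

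Of the ETS factors, Etv5 (chromosome 16, 22381313 to 22439570) had the most counts of the 10, at 457, 172 and 81.9 CPM in castrated and 582 and 25.0 CPM in intact samples. The intact samples differed 23.3-fold and the castrated samples fell in between, with a log2 fold change of -0.35 (standard error 1.30). Etv4 (chromosome 11, 101769748 to 101785310) was at 24.2, 9.81 and 6.50 CPM in castrated and 55.1 and 10.8 CPM in intact samples. Intact replicate 1 was again the highest, but intact replicate 2 lay between castrated replicates 1 and 2. The lowest value of the 10 was that of Etv4, -1.28 on the log2 scale (standard error 0.85, adjusted p = 0.528 by edgeR quasi-likelihood, Benjamini-Hochberg).

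On a scale per gene length, TPM, which divides counts by gene length before scaling to the library, the mean level over all 5 samples was highest for Dusp6 at 168 TPM and Etv5 at 129 TPM. Dusp4 followed at 81.9, Spred2 at 81.5, Spry4 at 61.5, Spred1 at 48.3, Spry2 at 46.5 and Spry1 at 41.5 TPM, with Etv4 at 21.7 and Dusp5 at 21.4 TPM the lowest. Samples did not share this order of levels. Dusp6 ranked 1 in each castrated sample, at 318, 137 and 102 TPM, Etv5 ranked 1 in intact replicate 1 at 293 TPM, and Spred2 ranked 1 in intact replicate 2 at 57.4 TPM. Etv5 fell to rank 8 in intact replicate 2 at 9.47 TPM, where Spry4 ranked last at 3.57 TPM. Neighbors in the order of means differed by less than the SD over samples of at least 1 of the pair.

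**Figure D2:**
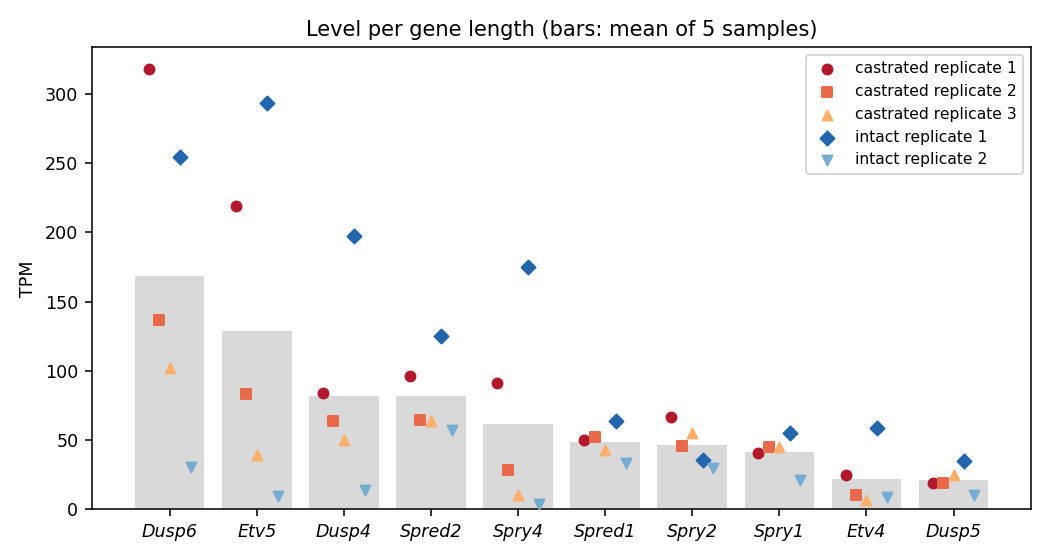
TPM (linear axis) of each feedback gene, with bars for the mean of 5 samples and 1 point per mouse. The points of Dusp6, Etv5, Dusp4 and Spry4 spread far around their bars, from 3.57 to 175 TPM for Spry4, whereas those of Spred1, Spry2 and Spry1 stay within 21.0 to 66.9 TPM.

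Samples of the same group differed widely in most of these genes. The following counts were chosen after the values had been seen. In intact replicate 1, 9 of the 10 were above intact replicate 2, beside 46.0% of all genes tested, Spry2 being the exception. For Dusp4, Dusp6, Spry4, Etv4 and Etv5 the difference exceeded 4-fold, 5 of 10 beside 6.84% of all genes. Among castrated samples, replicate 1 was the highest for 7 of the 10, beside 38.9% of all genes, with Dusp5, Spry1 and Spred1 the exceptions. For Dusp4, Dusp5, Spry1, Spry4, Spred1 and Etv5, all 3 castrated values lay between the intact values, 6 of 10 beside 17.3% of all genes. The difference between intact samples is that of 2 libraries and has no replicate check.

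Epithelial markers went both ways between the intact samples, so their sum cannot show whether they followed the feedback genes. Epcam, an epithelial adhesion protein, was at 1323 CPM in intact replicate 1 and 510 CPM in intact replicate 2, and the 10 epithelial markers, led by Krt8, summed to 4552 and 4303 CPM. The list was split, with 4 of 10 genes higher in intact replicate 1 and a median log2 difference between the intact samples of -3.08. In castrated replicates 1, 2 and 3, the same sum was 3340, 3165 and 4121 CPM, lowest in castrated replicate 2, whereas the feedback genes were lowest in castrated replicate 3. The secretory genes summed to 554 CPM in intact replicate 1 and 6164 CPM in intact replicate 2. Of the latter sum Mmp7 held 4495 CPM and Tgm4 most of the rest. Tgm4, Pbsn, Msmb and Spink1 did not pass the filter. Over the 3 genes of that list that were tested, the median log2 difference between the intact samples was -0.392. Endothelial genes, led by Cdh5, summed to 564, 390 and 438 CPM in castrated and 530 and 252 CPM in intact samples, and 9 of 10 were higher in intact replicate 1 than in intact replicate 2. Whether tissue makeup had a part in these values was not tested.

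For 9 of the 10 genes, the direction of the castrated to intact comparison depended on which intact mouse was used. Without intact replicate 1, all 10 log2 fold changes were above 0, beside 52.4% of all genes, with a median of 0.738, against 0.0438 over all genes. Without intact replicate 2, 9 of the 10 were below 0, beside 49.3% of all genes, with a median of -0.715, against 0.0105 over all genes, and Spry2 remained above 0. Dusp4 moved from 1.92 (standard error 0.40) to -1.55 (0.32), Dusp6 from 2.28 (0.82) to -0.43 (0.69), Spry4 from 3.28 (1.503) to -1.99 (1.10) and Etv5 from 3.27 (1.21) to -1.33 (0.92). Smaller moves were those of Dusp5 from 0.74 to -0.72, Spry1 from 0.74 to -0.30, Spred1 from 0.21 to -0.38, Spred2 from 0.068 to -0.71 and Etv4 from 0.35 to -2.06, and Spry2 was at 0.58 and 0.68. In each of these fits the lone intact sample was assumed to vary like the castrated samples. No feedback gene was called either way, with smallest adjusted p of 0.138 without intact replicate 1 and 0.348 without intact replicate 2 (edgeR quasi-likelihood, Benjamini-Hochberg), although 4 of the 10 were under an unadjusted 0.05 without intact replicate 1, beside 22.0% of all genes, and 2 without intact replicate 2, beside 13.7%.

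**Figure D3:**
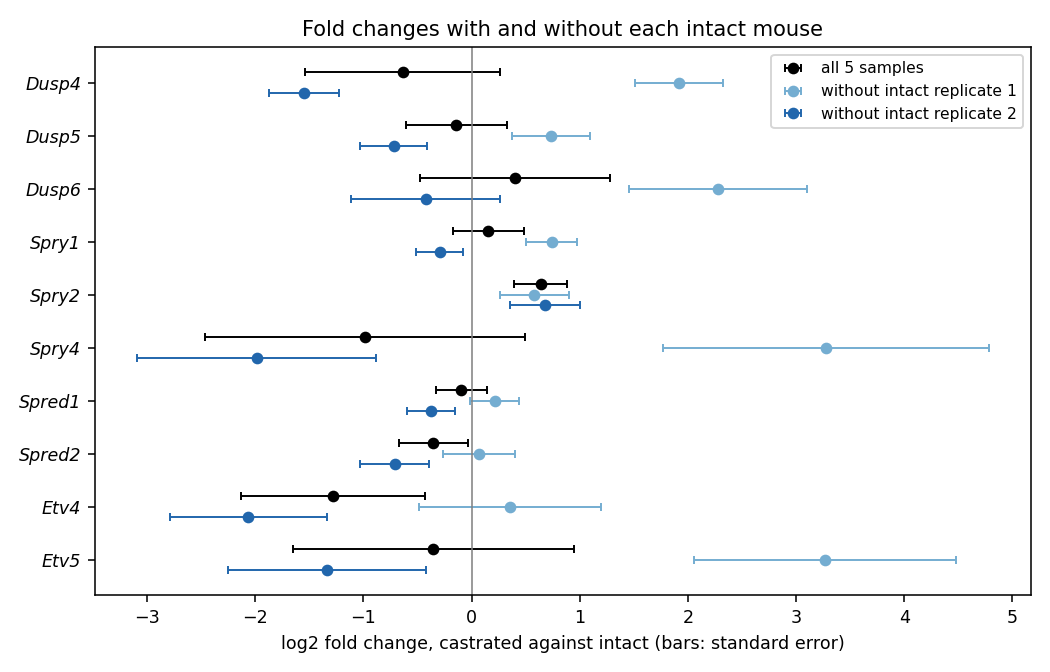
Log2 fold change, castrated against intact, with its standard error as bars, for each feedback gene with all 5 samples and without each intact mouse. The fits without intact replicate 1 lie above 0 for all 10 genes and those without intact replicate 2 lie below 0 for 9, Spry2 being the exception.

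The profiles of the 10 genes over the 5 samples were compared by the root mean square distance of their log2 CPM, centred on each gene's mean. Averaged over the 10, the profile stood at 0.618, -0.083 and -0.411 in the castrated and at 1.015 and -1.14 in the intact samples. Spry4 and Etv5 were nearest to each other (distance 0.391), as were Dusp4 and Dusp6 (0.493) and Dusp5 and Spry1 (0.209), while Spred1 was nearest to Spry1 (0.239) and Spred2 to Spred1 (0.248). Etv4 was farthest from any other of the 10, at 0.749 from Spred2, and Spry2 was nearest to Spred1, at 0.457. The distance depends on how widely a gene varied, and its distance from a flat profile was 1.09 for Etv4, 0.357 for Spry2 and 0.19 for Spred1. Spry2 and Spred1 thus lay farther from their nearest gene than from a flat profile, so their pairings show no likeness. Outside the group, the 3 genes nearest to the average profile were Cdkn2b (0.069), which encodes an inhibitor of cyclin-dependent kinases, Snai1 (0.089), a transcription factor of epithelial to mesenchymal transition, and Plod2 (0.1), a collagen lysyl hydroxylase. Snai1 was at 15.8, 8.47 and 6.45 CPM in castrated and 18.9 and 3.89 CPM in intact samples. With 5 samples, many genes can share a profile.

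Other genes of the pathway were described by lists built on their roles, and each count at an unadjusted p under 0.05 is to be read against the 14.2% of all genes tested that reached it. Of 10 other ERK-induced genes, 0 had an unadjusted p under 0.05, 4 had a log2 fold change above 0 and 6 below, and the median was -0.0634. They differed between the intact samples as the feedback genes did, with 9 of 10 higher in intact replicate 1 and a median log2 difference of 1.84, against 1.87 for the feedback genes and -0.0681 for all genes tested. Fosl1, a FOS family partner in AP-1, was at 5.996, 3.27 and 3.32 CPM in castrated and 22.8 and 0.741 CPM in intact samples, with a log2 fold change of -1.48 (standard error 1.22). Ccnd1, which encodes cyclin D1 and has the most counts of the list, was at 806, 154 and 169 CPM in castrated and 329 and 157 CPM in intact samples. Castrated replicate 1 was highest, with intact replicate 1 next. Without intact replicate 1 and without intact replicate 2 in turn, the log2 fold change was 2.52 and -2.47 for Fosl1 and 1.29 and 0.15 for Ccnd1, and the median of the list was 1.40 and -0.810. Phlda1, named after its values had been seen, was at 357, 198 and 139 CPM in castrated and 387 and 82.5 CPM in intact samples, the same order over the 5 samples as Dusp4, Spry4 and Etv5.

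Immediate early genes, which respond to ERK and to many stresses within minutes, differed less between the intact samples. Of 10, 7 were higher in intact replicate 1 than in intact replicate 2, with a median log2 difference of 0.25. Egr1, a direct ERK to ETS target, was at 82.6, 59.8 and 138 CPM in castrated and 106 and 132 CPM in intact samples, with overlapping groups and a log2 fold change of -0.34, or -0.47 without intact replicate 1 and -0.22 without intact replicate 2. Atf3, a stress-induced factor, was the highest on the log2 scale, 0.83 (standard error 0.49), with castrated replicate 2 at 160 CPM and the other castrated samples at 57.3 and 71.7 CPM. Fosl2 had the most counts, with a log2 fold change of 0.02 (standard error 0.28). The median over the list was 0.223, and 0 of 10 had an unadjusted p under 0.05.

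Among relatives of the feedback genes, Etv1, the ETS factor nearest in family to ETV4 and ETV5, was higher in castrated samples at an unadjusted p under 0.05. It was at 17.2, 26.5 and 27.5 CPM in castrated and 7.34 and 4.12 CPM in intact samples. The groups did not overlap, and the log2 fold change of Etv1 was 2.05 (standard error 0.42, adjusted p = 0.320 by edgeR quasi-likelihood, Benjamini-Hochberg), with an adjusted p of 0.000605 by DESeq2 and 0.0172 by edgeR's likelihood ratio test. Its log2 fold change was 2.55 without intact replicate 1 and 1.66 without intact replicate 2. Spred3 had the lowest value, -1.47 (standard error 1.06), which became 0.92 without intact replicate 1 and -2.36 without intact replicate 2, at 48.2, 24.0 and 8.42 CPM in castrated and 135 and 14.4 CPM in intact samples. Dusp16, a phosphatase of JNK and p38, had the most counts and was at 84.8, 88.8 and 82.9 CPM in castrated and 85.1 and 111 CPM in intact samples. Of 9 relatives tested, 1 was higher at an unadjusted p under 0.05 and 0 lower, beside 14.2% of all genes, and the list had a median of -0.199 on the log2 scale.

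None of the kinases and adaptors between receptor and ERK passed the test. Of 13 cascade genes, 0 had an unadjusted p under 0.05, and the median log2 fold change was -0.0984. The extremes were Ksr1, a scaffold of RAF and MEK, at 0.79 (standard error 0.32), and Araf, a RAF kinase, at -0.70 (standard error 0.32), and the gene with the most counts, Rps6ka3, a kinase activated by ERK, was at -0.12 (standard error 0.45). Of 13 adaptors and RAS regulators, 0 had an unadjusted p under 0.05, with a median of -0.0207. Grb2, which couples receptors to RAS activation, was the highest at 0.65 (standard error 0.28), Frs2, the docking protein of FGF receptors, the lowest at -0.31 (standard error 0.26), and Ptpn11, the phosphatase SHP2, had the most counts, at -0.10 (standard error 0.19). Between the intact samples the median log2 ratio was 0.135 for the cascade and 0.168 for the adaptors, far below that of the feedback genes. It was 0.969 for the ligands, with 14 of 17 higher in intact replicate 1, and 0.71 for the relatives, with 6 of 9. For the receptors it was 0.0157, with 7 of 14 higher in intact replicate 1. A higher level in intact replicate 1 was thus not particular to ERK-induced genes.

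Met, the receptor of HGF, was highest in intact replicate 1. It was at 189, 138 and 129 CPM in castrated and 434 and 178 CPM in intact samples, a log2 difference of -1.01 (standard error 0.42, adjusted p = 0.369 by edgeR quasi-likelihood, Benjamini-Hochberg) that moved to -0.20 without intact replicate 1 and to -1.55 without intact replicate 2. Hgf was at 191, 87.6 and 154 CPM in castrated and 92.7 and 53.7 CPM in intact samples, with overlapping groups and a log2 fold change of 0.98 (standard error 0.43), or 1.45 without intact replicate 1 and 0.60 without intact replicate 2. Any transgene reads that mapped to the mouse loci would be part of these counts.

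Of 14 receptors tested, Kit and Pdgfra were higher in castrated samples at an unadjusted p under 0.05, and 0 were lower, a share like the 14.2% of all genes tested. Kit, the stem cell factor receptor, was at 58.5, 68.3 and 64.2 CPM in castrated and 32.8 and 13.3 CPM in intact samples, without overlap and with a log2 fold change of 1.47 (standard error 0.42). For Pdgfra, a receptor of mesenchymal cells, it was 1.52 (standard error 0.52). Of 17 ligands, Igf1, at a log2 fold change of 2.003 (standard error 0.40), Fgf7, at 2.41 (standard error 0.60), and Pdgfb, at 1.47 (standard error 0.53), were higher at an unadjusted p under 0.05, a share near that of all genes. Igf1 and Fgf7, made largely by stromal cells, stood at 169, 308 and 226 against 42.8 and 74.5 CPM for Igf1 and at 6.52, 12.5 and 19.7 against 2.60 and 2.27 CPM for Fgf7, each without overlap. The adjusted p of these 5 genes ran from 0.320 to 0.340 (edgeR quasi-likelihood, Benjamini-Hochberg). DESeq2 called Igf1 (adjusted p = 0.000283), Fgf7 (adjusted p = 0.00386) and Kit (adjusted p = 0.0398), edgeR's likelihood ratio test called Igf1 (adjusted p = 0.0108) and Fgf7 (adjusted p = 0.0415), and neither called Pdgfra or Pdgfb. Without intact replicate 1 and without intact replicate 2 in turn, the log2 fold change was 2.28 and 0.92 for Kit, 1.68 and 2.42 for Igf1 and 2.53 and 2.27 for Fgf7. Without intact replicate 2, Pdgfra and Pdgfb were no longer under an unadjusted 0.05, nor was Pdgfb without intact replicate 1. The highest ligand value, 2.65 for Mst1, came with castrated replicate 3 at 14.4 CPM, beside 0.209 and 0.107 CPM in castrated replicates 1 and 2, and the lowest was -1.34 for Btc (standard error 0.55). For Btc, at 8.54, 10.8 and 27.0 CPM in castrated and 44.3 and 34.3 CPM in intact samples, and for Nrg1, named after its values had been seen, every castrated value was below both intact values, so 2 of 17 ligands did not overlap in that direction, beside 16.1% of all genes, and 3 in the other, beside 17.0%. Kitl, the ligand of Kit and the ligand with the most counts, was at 771, 740 and 370 CPM in castrated and 1025 and 325 CPM in intact samples. Receptors and ligands had median log2 fold changes of 0.232 and 0.0341.

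**Figure D4:**
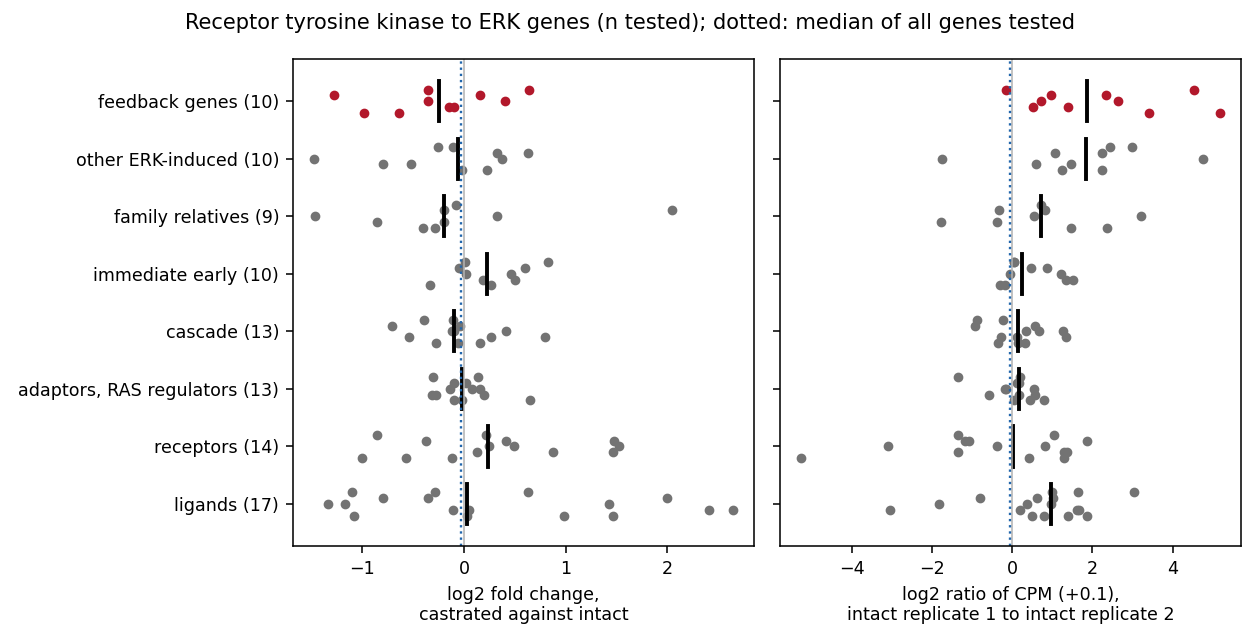
Each point is a gene of the named list, with the number tested in brackets, black bars for list medians and dotted lines for the median of all genes tested. The left axis gives the log2 fold change of castrated against intact samples, where list medians lie between -0.249 and 0.232, and the right axis the log2 ratio of CPM plus 0.1 in intact replicate 1 to that in intact replicate 2, where the feedback genes and the other ERK-induced genes lie farthest to the right.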

How the data were processed

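Libraries were depleted of ribosomal RNA and sequenced in pairs. Reads were trimmed (Trimmomatic 0.39), aligned to mm10 (STAR 2.7.9) and assigned to genes (HTSeq 2.0.2) by the authors, per the labels. The deposited values are raw read counts, 1 column per mouse, with gene coordinates and lengths. The annotation release and the strand setting of counting are not given in the sources used here, so overlapping and antisense genes are uncertain. Samples were grouped by their titles, and no sample was left out. Same-numbered samples are different animals. The chi-square per gene between samples of a group was at least 116, so no 2 samples of the same group held the same library.

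The tools were DESeq2 1.42.0, edgeR 4.0.16 and limma 3.58.1 under R 4.3.3. A gene was tested if 2 or more samples exceeded a CPM of 1, as in the study's methods. The test was edgeR's quasi-likelihood test with TMM normalization, and an adjusted p (Benjamini-Hochberg over 14612 genes) under 0.05 with an absolute log2 fold change above 1 was the threshold. The methods name TPM as input, and counts were used here, with TPM, computed from the lengths in the table, as an alternative. Log2 CPM for profiles used a prior count of 2. On simulated counts of this comparison, the test called 68 of 176 changed genes and 1 unchanged gene among 13899 genes. The common dispersion was 0.238, so the precision depends on the spread between mice more than on depth.

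The 10 genes and all lists were chosen with earlier results of these data known. Named from each list were the highest and lowest log2 fold change, genes with an unadjusted p under 0.05, the gene with the most counts, and Met and Hgf, with the 3 genes nearest in profile. Other names are markers or are said to be chosen later. Spry3 has no row and Fgfr4 did not pass the filter. Of 7 T cell genes tested, led by Cd4, 1 was higher in castrated samples without overlap, beside 17.0% of all genes tested. Some marker genes of the lists are not reported here by name. Other experiments of the study were not analysed here.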

Additional observations from a re-analysis of the deposited data

How the results depend on the processing

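Of 100 results for the feedback genes under 10 alternatives other than leaving out a sample, 89 kept their direction and 0 of the 10 genes passed the threshold under any. The reversals were with limma voom (Dusp4 0.16, Spry4 0.14, Etv5 0.59), with limma-trend on log2(TPM + 1), where the median of all genes also shifted to 0.129 (Dusp4 0.27, Dusp5 0.12, Spry4 0.14, Spred1 0.059, Etv5 0.71), and with the replicate block (Dusp4 0.33, Spry4 0.87, Etv5 1.21). The cause was not tested. Same-numbered samples share only a number: their deviations correlated at 0.149 for replicate 1 and -0.045 for replicate 2, and the block left 0 genes past the threshold, with 883 at the unadjusted p and the same fold change, against 1530 without it.

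When each sample was left out in turn, log2 fold changes ran from -1.55 to 1.92 for Dusp4, -0.72 to 0.74 for Dusp5, -0.43 to 2.28 for Dusp6, -0.30 to 0.74 for Spry1, 0.49 to 0.78 for Spry2, -2.15 to 3.28 for Spry4, -0.38 to 0.21 for Spred1, -0.71 to 0.068 for Spred2, -2.06 to 0.35 for Etv4 and -1.33 to 3.27 for Etv5. Dusp6 was also below 0 without castrated replicate 1 (-0.23), and Etv5 above 0 without castrated replicate 3 (0.056). List medians ran from -0.715 to 0.738 for the feedback genes, -0.430 to 0.527 for their relatives, -0.810 to 1.40 for other ERK-induced genes, -0.0987 to 0.542 for immediate early genes, -0.164 to 0.0980 for the cascade, -0.107 to 0.0104 for adaptors, 0.0487 to 0.481 for receptors and -0.619 to 1.27 for ligands. With limma voom, limma-trend on TPM and the replicate block in turn, the median turned above 0 for the feedback genes (0.152, 0.204 and 0.265) and the other ERK-induced genes (0.240, 0.380 and 0.355). The cascade median was 0.0765 with limma-trend on TPM and 0.0351 with the replicate block, and the adaptor median 0.108 and 0.00497, or 0.00139 with library size only. The ligand median was -0.0272 with the stricter filter.

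Over all genes, 0 passed the threshold, with 989 by DESeq2 (703 higher and 286 lower), 369 by the likelihood ratio test (276 higher and 93 lower) and between 0 and 1 when a sample was left out. The newer quasi-likelihood fit of edgeR, chosen after seeing the data, gave 0, with 1596 at the unadjusted p. Spry2 kept its direction throughout, but its unadjusted p rose above 0.05 with upper quartile scaling (0.0501), no filter (0.0517), limma voom (0.0515), the likelihood ratio test (0.106) and the block (0.157). With 2 intact samples that differ this much, the direction of 9 of the 10 genes is not settled at this number of mice. Depth limits little here, since the smallest count of a feedback gene was 135.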
